A study of Rattus norvegicus with 16 samples.

Results

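The genes described here are markers of white blood cells and chemokines, the secreted proteins that steer these cells into tissue, measured in the kidneys of diabetic nephropathy (DN) rats given sinomenine (SIN), an alkaloid, and of rats that were not. They were chosen by name from a list of 38 symbols, and 37 of them were found among the 35849 genes of the expression table. Ccr2, the receptor of Ccl2, had no row under that name. The list holds 5 pan-leukocyte markers, 11 macrophage and myeloid markers, 10 T and NK cell markers, 3 B cell markers and 9 genes for chemokines, their receptors and Csf1.

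Kidney mRNA was sequenced from 16 male Sprague Dawley rats, 6-8 weeks old at the start, 4 per group. The normal group received citrate buffer and an ordinary diet. The DN group and both SIN groups received streptozotocin (STZ, a toxin of insulin-producing cells) at 45 mg/kg and a diet rich in glucose and fat, and only STZ rats whose blood glucose passed a limit were kept. The SIN groups were given SIN daily by gavage for 8 weeks at 20 or 40 mg/kg, while the DN group was given vehicle. DN and normal rats therefore differed in both STZ and diet, and their effects cannot be told apart. The study kept 6 rats per group, and how the 4 that were sequenced were picked was not given in the sources used here. Library serial numbers follow on from one another inside a group, so a library batch and the group cannot be told apart.

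Leukocytes carry the phosphatase CD45, encoded by Ptprc, on their surface, and the different types are told apart by further proteins such as the CD3 chains of the T cell receptor complex, the B cell receptor partners CD79A and CD79B, and CD68 of macrophage lysosomes. Chemokines such as CCL2 and CX3CL1 bind receptors on leukocytes and draw them into tissue, whereas CSF1 acts through its receptor CSF1R to keep macrophages alive. Macrophages are the leukocytes most often described in the diabetic kidney, but tubular, endothelial and stromal cells of the kidney also make Cx3cl1, Cxcl12, Cxcl16 and Csf1, so these genes do not mark leukocytes alone.

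Promoter sequences are shown for 4 members that had a promoter entry and are named in the comparisons that follow. Cd4 and Fcer1g, with smaller p values in edgeR's test of SIN (20 mg/kg) over DN than Laptm5 and Cx3cl1, had no entry. Ptprc and Cxcl12 were the members past the adjusted threshold between the DN and normal groups, and Laptm5 and Cx3cl1 were members whose SIN (20 mg/kg) rats all lay below the DN rats. Each sequence is the 250 bases before the annotated start of the gene on its own strand, from RefSeq on the build GRCr8. The window of Ptprc was chr13:52259747-52259996 on the minus strand and that of Laptm5 chr5:148371630-148371879 on the plus strand. That of Cx3cl1 was chr19:10242821-10243070 on the minus strand and that of Cxcl12 chr4:152060531-152060780 on the plus strand. Capitals mark GAGGAA or its reverse complement TTCCTC, the core recognised by PU.1, a transcription factor of myeloid and B cells encoded by Spi1.
Ptprc: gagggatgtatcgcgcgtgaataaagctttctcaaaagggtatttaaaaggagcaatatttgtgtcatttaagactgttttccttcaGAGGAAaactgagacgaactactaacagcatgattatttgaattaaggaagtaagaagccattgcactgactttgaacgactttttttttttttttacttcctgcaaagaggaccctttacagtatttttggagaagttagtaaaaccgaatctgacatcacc
Laptm5: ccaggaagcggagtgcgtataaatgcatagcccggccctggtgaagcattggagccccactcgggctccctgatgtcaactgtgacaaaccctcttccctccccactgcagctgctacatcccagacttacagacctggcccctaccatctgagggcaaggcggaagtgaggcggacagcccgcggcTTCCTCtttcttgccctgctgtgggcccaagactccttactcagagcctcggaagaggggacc
Cx3cl1: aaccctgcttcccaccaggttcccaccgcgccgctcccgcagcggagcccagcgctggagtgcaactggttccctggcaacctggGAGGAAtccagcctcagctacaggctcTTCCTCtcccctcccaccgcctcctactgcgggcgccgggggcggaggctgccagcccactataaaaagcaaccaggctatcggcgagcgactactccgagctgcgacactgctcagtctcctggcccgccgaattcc
Cxcl12: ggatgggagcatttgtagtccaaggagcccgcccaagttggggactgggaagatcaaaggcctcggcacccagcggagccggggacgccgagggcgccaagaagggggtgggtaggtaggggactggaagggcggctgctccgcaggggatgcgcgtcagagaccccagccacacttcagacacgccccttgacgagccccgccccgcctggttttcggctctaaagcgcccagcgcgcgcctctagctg
The core stood 1 time in the window of Ptprc, 1 time in that of Laptm5, 2 times in that of Cx3cl1 and 0 times in that of Cxcl12. A promoter entry was found for 26 of the 38 listed genes, and 14 of these 26 genes had the core on either strand. Of all 33469 windows of this length, 23.3% held it. The members were counted by gene and the background by window, and a gene can have more than 1 window. A match is only a run of letters, and binding was not measured.

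Libraries held from 19616312 to 25217030 estimated counts. Levels are in CPM, that is counts after division by library size and TMM factor (16 rats together), in the order of replicates 1 to 4. The summed CPM of 8 kidney epithelial and podocyte genes was between 8981 and 12634 in every rat, so that defining kidney genes were present in all of them. Single genes of this sum varied more. Aqp2 ran from 139.8 CPM in normal replicate 1 to 1266 CPM in DN replicate 2. Slc12a1 ran from 358 CPM in DN replicate 4 to 1115 CPM in SIN (40 mg/kg) replicate 4. Whether the sampled part of the kidney differed between rats was not tested. Markers of other tissues differed between libraries. The summed CPM of 5 smooth muscle genes was 594 in DN replicate 3 and between 59.9 and 145 in the other 15 rats, and that of 6 urothelial genes was 119 in DN replicate 3, 55.6 in normal replicate 1 and at most 18.4 elsewhere. The summed CPM of 5 fat genes was between 64.8 and 96.97 in DN replicate 3, SIN (20 mg/kg) replicate 3 and SIN (40 mg/kg) replicate 1, and at most 35.9 in the others. For 4 red blood cell genes the sum was 406 to 927 in the normal and 215 to 645 in the DN rats. It was 270.1 to 1171 with SIN (20 mg/kg) and 263 to 583 with SIN (40 mg/kg). Whether blood left in the tissue bears on the leukocyte genes was not tested.

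The members spanned a wide range of levels. Per kilobase of gene length, the highest median level over the 16 rats was that of the macrophage lysozyme Lyz2, at 249 CPM per kb, although its reads may be shared with the near copy Lyc2. It was followed by the chemokines Cxcl16 at 61.6 CPM per kb and Cx3cl1 at 50.7 CPM per kb, and by Fcer1g, the signalling chain of Fc receptors, at 38.1 CPM per kb. Cd4 had a median level of 25.0 CPM per kb, far above that of the T cell chains Cd3g at 1.64 and Cd3d at 0.919 CPM per kb, with Cd3e between them. In rats CD4 is carried by macrophages as well as by T helper cells, so that Cd4 does not stand for T cells alone. The B cell genes were low, with medians of 0.815 CPM per kb for Cd79a, 0.306 for Cd79b and 0.0714 for Ms4a1, which had between 0 and 6 counts in a rat. A count of 0 allowed a level of up to 0.119 to 0.153 CPM (3 counts) in these libraries. These floors cover counting error only. Cd163, a scavenger receptor of resident macrophages, was also near the limit, with 7 to 37 counts per rat.

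**Figure D1:**
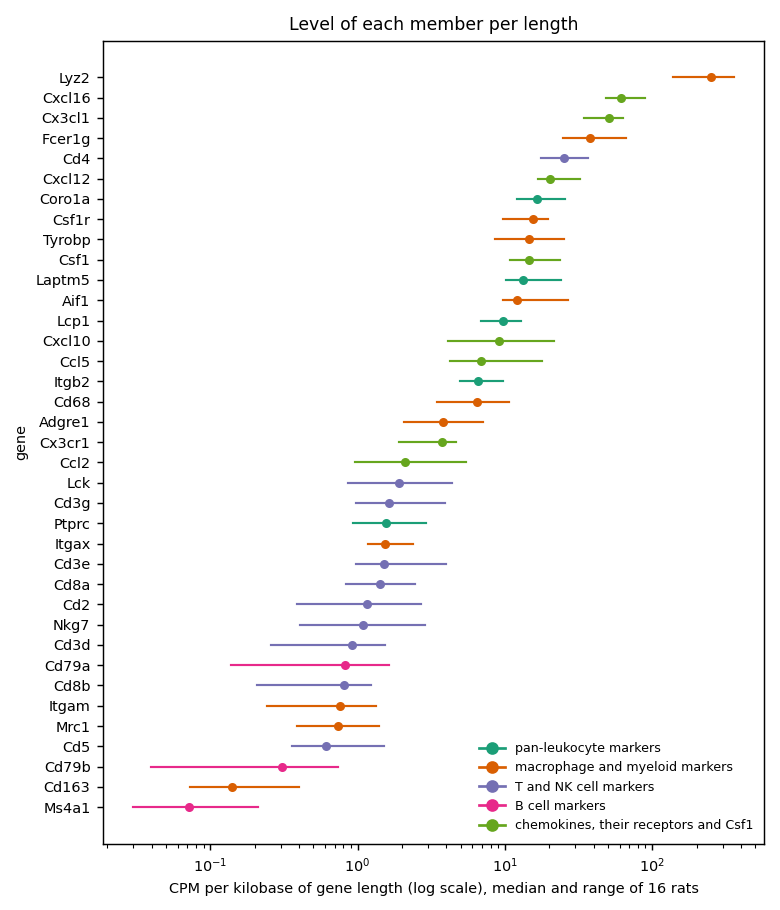
Level of each of the 37 members per kilobase of gene length, on a log axis, with the median (point) and the range (line) of the 16 rats. Lyz2 is highest at 249 CPM per kb and Ms4a1 lowest at 0.0714 CPM per kb, and the lowest value of Ms4a1, which is 0, is drawn at 0.03.

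The DN group was compared with the normal group to ask whether leukocyte and chemokine transcripts differ in the diabetic kidney. Of the 34 that could be tested, 2 were DEGs at an adjusted p under 0.05, and both were lower in the DN group, namely the CD45 gene Ptprc (ENSRNOG00000000655) and the stromal chemokine Cxcl12 (ENSRNOG00000013589). Tests were edgeR's quasi-likelihood test with Benjamini-Hochberg adjustment over all genes of a comparison. The 2 members made up 5.88% of those tested, and 19.5% of all 15777 genes tested were DEGs by the same rule. DESeq2 called 5 of the 34, or 14.7%, beside 26.4% of all genes with an adjusted p. At an unadjusted p under 0.05, 3 members had a higher and 4 a lower level in the DN group, that is 8.82% and 11.8% of the members beside 17.6% and 19.4% of all genes. The ranges of the groups did not overlap for 4 members, Ptprc, Aif1, Cxcl12 and Csf1, or 11.8%, beside 24.3% of all genes. The median log2 fold change was -0.01 over the members and 0.00 over all genes. In whole kidney RNA, fewer cells of a type and less RNA of a gene per cell cannot be told apart.

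Ptprc was at 9.25, 12.3, 14.2 and 8.44 CPM in the normal rats and 4.69, 6.98, 7.93 and 5.58 CPM in the DN rats. Every DN rat lay below every normal rat, with means of 11.05 ± 2.67 CPM and 6.29 ± 1.44 CPM (SD, n = 4 per group). The log2 fold change was -0.81 ± 0.22 (SE), with an adjusted p = 0.0328 in edgeR's quasi-likelihood test. This call changed when single rats were left out. The adjusted p lay between 0.0525 and 0.0954 when normal replicate 2, 3 or 4 or DN replicate 1, 2 or 4 was left out, with a log2 fold change between -0.92 and -0.67. The other 4 pan-leukocyte markers did not pass the test, so that 20.00% of the 5 were DEGs beside 19.5% of all genes. The integrin chain Itgb2, which all leukocyte integrins of its class use, was at 19.4, 25.3, 19.6 and 21.1 CPM in the normal rats and 30.7, 20.4, 27.5 and 19.95 CPM in the DN rats, and the ranges overlapped (log2 fold change 0.21 ± 0.16 (SE)). The lysosomal protein gene Laptm5 was at 25.96, 49.97, 27.3 and 22.9 CPM in the normal and 36.5, 33.7, 28.8 and 27.8 CPM in the DN rats, with normal replicate 2 above all others. The actin binding proteins Lcp1 and Coro1a had log2 fold changes of -0.14 and 0.13, and their ranges overlapped.

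Of the 11 macrophage and myeloid markers, 10 were tested and 0 were DEGs in edgeR's quasi-likelihood test or in DESeq2, while 2 had an unadjusted p under 0.05 in opposite directions. Over all genes, DEGs were 19.5% in edgeR's test and 26.4% of those with an adjusted p in DESeq2. At an unadjusted p under 0.05, 17.6% of all genes were higher and 19.4% lower. The CSF1 receptor gene Csf1r was at 35.9, 63.5, 51.2 and 45.9 CPM in the normal rats and 72.9, 68.4, 68.9 and 54.6 CPM in the DN rats. Only normal replicate 2 reached into the DN range, and the log2 fold change was 0.43 ± 0.16 (SE) with an adjusted p = 0.0898 in edgeR's test. Aif1, which encodes the macrophage protein IBA1, was at 8.45, 11.9, 10.97 and 7.87 CPM in the normal and 7.74, 7.23, 7.52 and 7.55 CPM in the DN rats. All DN values were below all normal values, but by little, with a log2 fold change of -0.38 ± 0.16 (SE) and an adjusted p = 0.117 in edgeR's test. Cd68 was at 6.53, 13.3, 5.85 and 5.97 CPM in the normal rats and 10.8, 7.63, 9.42 and 9.33 CPM in the DN rats. Normal replicate 2 had the highest Cd68 of all 16 rats, and without regard to it every DN rat lay above the normal rats. The same order held for Fcer1g, at 20.8, 41.7, 20.7 and 18.2 CPM in the normal and 35.4, 29.5, 31.8 and 31.8 CPM in the DN rats. With all 8 rats the log2 fold changes were 0.24 ± 0.27 (SE) for Cd68 and 0.35 ± 0.24 (SE) for Fcer1g, and neither was a DEG. The other 6 tested markers had log2 fold changes from -0.65 for the mannose receptor Mrc1 to 0.45 for the adaptor Tyrobp, with adjusted p values from 0.173 to 0.990 in edgeR's test. Mrc1 was at 7.20 CPM in DN replicate 3, the library with the most smooth muscle and urothelial RNA, and at 2.73 to 3.05 CPM in DN replicates 1, 2 and 4, beside 4.99 to 6.99 CPM in the normal rats. Without DN replicate 3, Mrc1 was a DEG with a log2 fold change of -1.12 and an adjusted p = 0.0158 in edgeR's test.

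All 10 T and NK cell markers were tested and 0 were DEGs in edgeR's quasi-likelihood test, with 1 at an unadjusted p under 0.05 and 1 DEG in DESeq2, which is Cd3g in both cases. Of all genes, 19.5% were DEGs in edgeR's test, and 17.6% were higher and 19.4% lower at an unadjusted p under 0.05. In DESeq2, 26.4% of all genes with an adjusted p were DEGs. Cd3g was at 1.03, 1.81, 2.40 and 2.08 CPM in the normal rats and 0.796, 1.11, 0.996 and 0.721 CPM in the DN rats. DN replicate 2 alone overlapped the lowest normal rat, and the log2 fold change of -1.01 ± 0.33 (SE) had an adjusted p = 0.0576 in edgeR's test and 0.0406 in DESeq2. Without normal replicate 1 it was a DEG in edgeR's test (log2 fold change -1.21, adjusted p = 0.0445). Cd3e was at 2.44, 4.10, 2.88 and 1.68 CPM in the normal and 1.42, 2.68, 1.22 and 1.54 CPM in the DN rats, and DN replicate 2 was again the highest of its group. Cd3e and Cd3d had log2 fold changes of -0.70 ± 0.35 (SE) and -0.64 ± 0.38 (SE), with adjusted p values of 0.175 and 0.240 in edgeR's test. Counts of Cd3d were low, at 4 to 25 per rat. Cd4 was placed the other way, at 34.6, 63.7, 44.9 and 34.2 CPM in the normal rats and 61.2, 50.7, 59.9 and 54.2 CPM in the DN rats. Again normal replicate 2 lay above the DN group and the other 3 normal rats below it, and the log2 fold change of 0.35 ± 0.19 (SE) had an adjusted p = 0.199 in edgeR's test. The coreceptor genes Cd8a and Cd8b, the adhesion receptor Cd2, Cd5, the kinase Lck and the granule protein Nkg7 had log2 fold changes between -0.49 and 0.48, with overlapping ranges.

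Of the 3 B cell markers, Cd79a alone had enough counts for the test. It was at 0.141, 0.927, 0.786 and 0.398 CPM in the normal rats and 1.46, 1.26, 0.544 and 0.865 CPM in the DN rats, which overlapped, with a log2 fold change of 0.87 ± 0.54 (SE) and an adjusted p = 0.268 in edgeR's test. It had 3 to 36 counts per rat. Cd79b had 1 to 20 counts per rat and Ms4a1 at most 6.

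Among the 8 chemokine, receptor and growth factor genes tested, 1 was a DEG and was lower in the DN group, or 12.5% beside 19.5% of all genes. DESeq2 called 3 of the 8, beside 26.4% of all genes with an adjusted p. Cxcl12, which binds CXCR4, was at 134, 121, 159 and 176 CPM in the normal rats and 109.7, 112, 91.6 and 100.1 CPM in the DN rats. All DN values were below all normal values, with means of 147 ± 24.9 CPM and 103 ± 9.30 CPM (SD, n = 4 per group), a log2 fold change of -0.52 ± 0.13 (SE) and an adjusted p = 0.0277 in edgeR's quasi-likelihood test. The adjusted p lay between 0.0526 and 0.0821 without normal replicate 3 or 4 or DN replicate 2, 3 or 4. Csf1 was at 20.7, 27.1, 26.8 and 24.9 CPM in the normal rats and 44.7, 28.2, 33.2 and 28.8 CPM in the DN rats. Every DN rat was above every normal rat, and DN replicate 1 was highest, yet the log2 fold change of 0.44 ± 0.16 (SE) had an adjusted p = 0.0814 in edgeR's test and 0.0483 in DESeq2. Cx3cr1, the receptor of Cx3cl1 on monocytes, macrophages and NK cells, was at 3.24, 2.73, 4.81 and 2.52 CPM in the normal rats and 4.29, 6.12, 5.84 and 5.05 CPM in the DN rats. Normal replicate 3 overlapped the DN range, and the log2 fold change was 0.67 ± 0.24 (SE) with an adjusted p = 0.0773 in edgeR's test and 0.0404 in DESeq2. Without normal replicate 3 it was a DEG in edgeR's test (log2 fold change 0.91, adjusted p = 0.0449). Its ligand Cx3cl1, at 194, 199, 161 and 169 CPM in the normal and 164, 170.5, 157 and 159.9 CPM in the DN rats, overlapped between the groups. Ccl2, the monocyte chemokine, was at 0.798, 1.76, 2.49 and 1.77 CPM in the normal rats and 2.57, 2.12, 1.36 and 1.83 CPM in the DN rats, with a log2 fold change of 0.20 ± 0.36 (SE), which is smaller than its error. Cxcl16, the T cell chemokine Ccl5 and the interferon-induced Cxcl10 had log2 fold changes of -0.27, -0.22 and -0.01, and their adjusted p values were between 0.175 and 0.988 in edgeR's test.

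**Figure D2:**
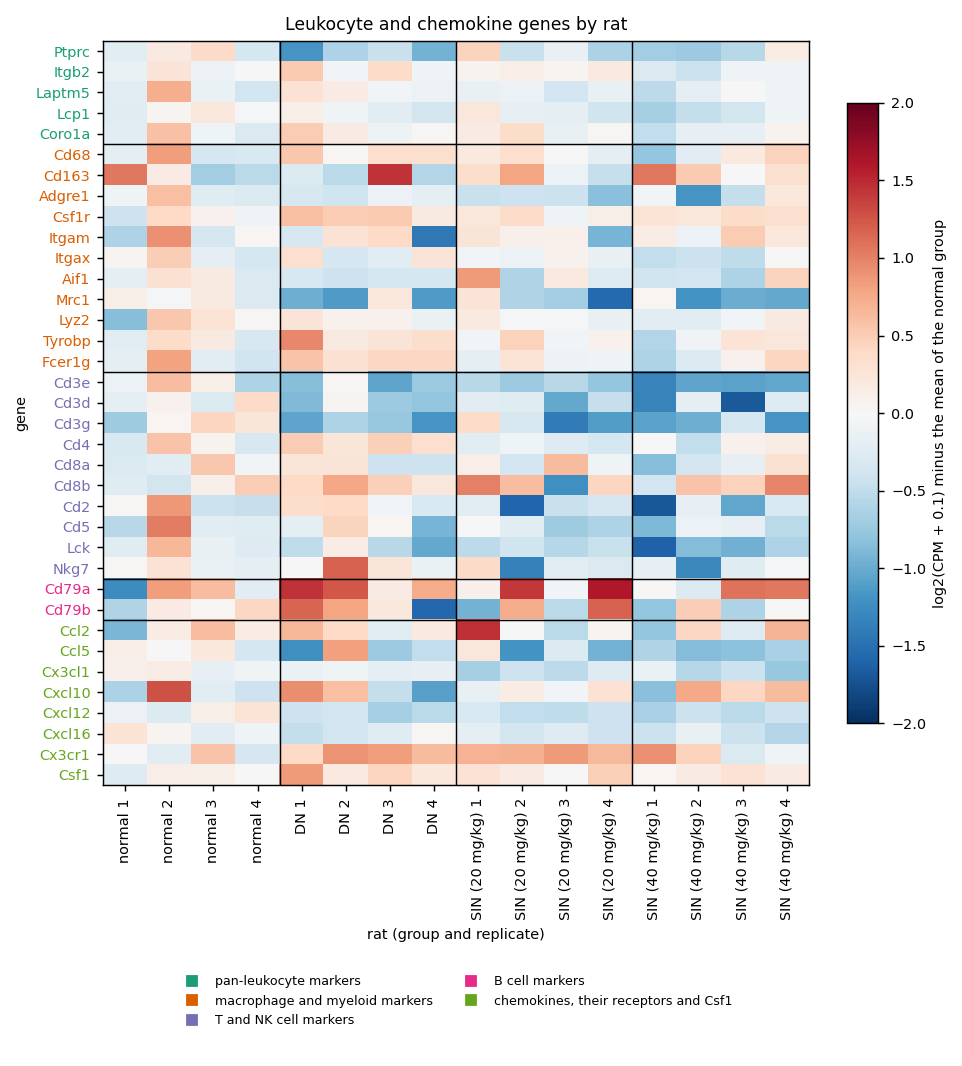
Heat map of the 36 members tested in any comparison (rows, coloured by list) in the 16 rats (columns), as log2(CPM + 0.1) minus the mean of the normal group. Normal replicate 2 is red in most macrophage and T cell rows, and the rows of Ptprc and Cxcl12 are blue in all 4 DN rats.

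One library weighed on many of these values. Normal replicate 2 had the highest level of its group in 23 of the 37 members, and the other normal rats in 2, 8 and 4. Each other group also had a leading rat, namely DN replicate 1, SIN (20 mg/kg) replicate 1 and SIN (40 mg/kg) replicate 4, with 17 members each. The same was not counted over all genes. Its Lck was at 9.08 CPM, beside 4.73 to 5.11 CPM in the other normal rats, and its Cxcl10 at 24.3 CPM, beside 6.43 to 8.56 CPM. When it was left out, 11 of 35 members had an unadjusted p under 0.05 (4 without DN replicate 1). Of these 8 were higher and 3 lower in the DN group, or 22.9% and 8.57% of the members, beside 18.1% and 20.9% of the 16019 genes then tested. DEGs were 5 members, or 14.3%, beside 23.6% of all genes. Of the DEGs, 4 were higher in the DN group, namely Fcer1g, Cd4, Csf1r and Cd68, and Cxcl12 was lower. Normal replicate 2 was the highest normal rat in each of these 4, so leaving it out raises their log2 fold changes by construction. Fcer1g then had a log2 fold change of 0.68 ± 0.11 (SE) with an adjusted p = 0.00698, Cd4 one of 0.56 ± 0.13 (SE) with 0.0185, Csf1r one of 0.56 ± 0.15 (SE) with 0.0310 and Cd68 one of 0.59 ± 0.16 (SE) with 0.0314, all in edgeR's quasi-likelihood test. The median log2 fold change of the members was then 0.21, and that of the 10 macrophage and myeloid markers 0.17, of which 7 were positive. Ptprc kept a log2 fold change of -0.77 ± 0.25 (SE), with an adjusted p = 0.0525 in edgeR's test. The labels give no reason to set this rat aside, so the values with all 8 rats stand as the result. Without normal replicate 1 and DN replicate 3, the libraries highest in smooth muscle and urothelial genes, Ptprc had a log2 fold change of -1.02 (adjusted p = 0.0521) and Cxcl12 one of -0.51 (adjusted p = 0.0800) in edgeR's test.

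**Figure D3:**
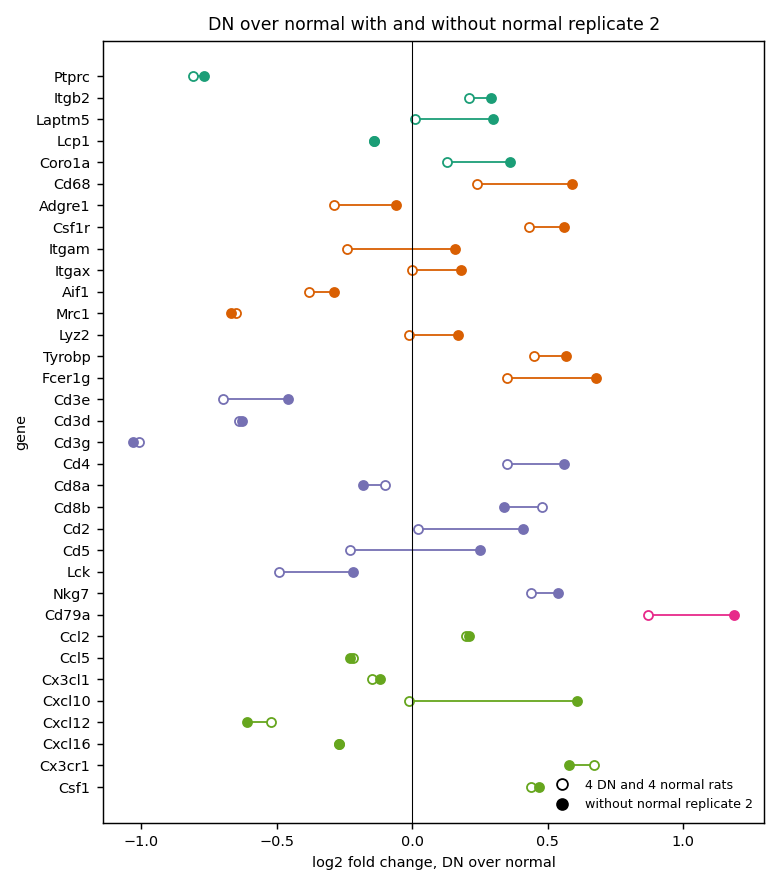
Log2 fold change of each member between the DN and normal groups with all 8 rats (open) and without normal replicate 2 (filled), coloured by list as in the heat map. Fcer1g moves from 0.35 to 0.68 and Cd68 from 0.24 to 0.59, while Ptprc stays at -0.81 and -0.77. Where normal replicate 2 was the highest normal rat, leaving it out raises the log2 fold change by construction.

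The SIN (20 mg/kg) group was compared with the DN group to ask whether the drug goes with a different level of these genes. Of 36 members tested, 0 were DEGs in edgeR's quasi-likelihood test, where the share of all 15725 genes was also 0%. In DESeq2, 23 of the members had an adjusted p and 1 of them, Cd4, was a DEG, or 4.35%, beside 1.74% of all 12663 genes with an adjusted p. At an unadjusted p under 0.05, 1 member had a higher and 5 a lower level in the SIN (20 mg/kg) group, or 2.78% and 13.9% of the members, beside 9.19% and 6.25% of all genes. The ranges did not overlap for 5 members, all lower with SIN, or 13.9%, beside 8.85% of all genes. Without DN replicate 1 or SIN (20 mg/kg) replicate 3, 3 members in place of 6 had an unadjusted p under 0.05. The median log2 fold change of the members was -0.08, and 25 of the 36 were negative. This comparison and that of the SIN (40 mg/kg) group share the DN rats with each other and with the comparison of DN and normal rats.

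Cd4 had the smallest p of the members. It was at 37.1, 40.2, 35.9 and 33.5 CPM with SIN (20 mg/kg), beside 50.7 to 61.2 CPM in the DN rats, and no rat of one group reached the other. Its log2 fold change was -0.62 ± 0.10 (SE), with an unadjusted p = 8.79e-05, an adjusted p = 0.141 in edgeR's quasi-likelihood test and 3.41e-05 in DESeq2. Over all alternatives the adjusted p of Cd4 ran up to 0.528. Fcer1g was at 20.9, 28.8, 22.4 and 22.6 CPM with SIN (20 mg/kg), below the 29.5 to 35.4 CPM of the DN rats. Its log2 fold change was -0.44 ± 0.12 (SE), with an adjusted p = 0.270 in edgeR's test. Cx3cl1 was at 113, 135, 125 and 150.1 CPM, all below the DN range of 157 to 170.5 CPM, with a log2 fold change of -0.31 ± 0.10 (SE) and the same adjusted p. Laptm5, at 27.1, 27.6, 22.9 and 27.03 CPM, also lay below the DN rats, whose lowest value was 27.8 CPM, and had a log2 fold change of -0.27 ± 0.12 (SE). Csf1r was at 56.4, 62.00, 45.2 and 52.1 CPM, with SIN (20 mg/kg) replicates 1 and 2 inside the DN range, and had a log2 fold change of -0.29 ± 0.12 (SE). The fifth member without overlap was Adgre1, the gene of the macrophage protein F4/80, at 11.2, 11.5, 11.4 and 8.57 CPM beside 11.6 to 14.2 CPM in the DN rats, with an unadjusted p = 0.0765 in edgeR's test.

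Of the 6 members at an unadjusted p under 0.05, Ptprc was the 1 with a higher level in the SIN (20 mg/kg) group. It was at 14.7, 7.95, 9.79 and 6.97 CPM with SIN (20 mg/kg), and replicates 1 to 3 lay above every DN rat while replicate 4 lay within the DN range. The log2 fold change was 0.65 ± 0.26 (SE), with an adjusted p = 0.302 in edgeR's test. Aif1 was at 17.5, 6.32, 11.1 and 8.05 CPM, with a log2 fold change of 0.52 ± 0.28 (SE), and in both genes replicate 1 was highest. Itgb2 was at 22.2, 23.2, 21.96 and 24.4 CPM, within the DN range. Cxcl12 was at 118, 104, 103 and 109 CPM, with a log2 fold change of 0.07 ± 0.10 (SE), and its SIN values lay close to those of the DN rats. Csf1 was at 30.3, 27.7, 24.9 and 34.3 CPM and Cx3cr1 at 5.30, 5.33, 5.91 and 5.09 CPM, and both overlapped the DN range. The monocyte chemokine Ccl2 was at 4.52, 1.59, 1.06 and 1.65 CPM, and replicate 1 was the highest of all 16 rats. Cd68 was at 8.53, 9.38, 7.47 and 6.50 CPM, with a log2 fold change of -0.22 ± 0.17 (SE). The T cell chains Cd3e, at 1.77, 1.55, 1.77 and 1.51 CPM, and Cd3g, at 2.28, 1.39, 0.606 and 0.753 CPM, overlapped the DN rats, as did Cd79a at 0.517, 1.43, 0.454 and 1.65 CPM.

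At 40 mg/kg, 34 members were tested against the DN group and 0 were DEGs in edgeR's quasi-likelihood test or in DESeq2, where the share of all 15530 genes in edgeR's test was also 0%. In DESeq2 28 of the members had an adjusted p, and 3.10% of all 13697 genes with one were DEGs. At an unadjusted p under 0.05, 0 members had a higher and 4 a lower level, or 11.8% of the members lower, beside 9.90% of all genes higher and 7.21% lower. The ranges did not overlap for 1 member, Cd4, beside 10.7% of all genes. The median log2 fold change was -0.26 over the members, of which 26 were negative, and 0.01 over all genes. By list the median was -0.25 for the 5 pan-leukocyte markers, -0.13 for the 11 macrophage and myeloid markers, -0.42 for the 9 T and NK cell markers tested and -0.21 for the 8 chemokine genes. Cd79a, the only B cell marker tested, had a log2 fold change of -0.41.

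Cd4 was at 42.7, 30.6, 45.5 and 47.8 CPM with SIN (40 mg/kg), below all DN rats, with a log2 fold change of -0.42 ± 0.14 (SE) and an adjusted p = 0.216 in edgeR's test. Itgb2 was at 17.4, 15.7, 20.1 and 20.1 CPM, beside 19.95 to 30.7 CPM in the DN rats. Replicates 3 and 4 just reached the DN range, and the log2 fold change was -0.41 ± 0.16 (SE) with an adjusted p = 0.259 in edgeR's test. Fcer1g was at 15.5, 19.8, 25.5 and 32.2 CPM, where replicate 4 lay within the DN range, with a log2 fold change of -0.45 ± 0.20 (SE). Cx3cl1 was at 165, 121, 133 and 107 CPM, where replicate 1 lay within the DN range, with a log2 fold change of -0.29 ± 0.13 (SE). The number of members at an unadjusted p under 0.05 was 1 without DN replicate 1, 2 without DN replicate 2 or SIN (40 mg/kg) replicate 2 or 3, and 7 without SIN (40 mg/kg) replicate 4.

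The remaining named members overlapped the DN rats at this dose. Ptprc was at 6.65, 6.46, 7.33 and 11.97 CPM, where replicate 4 exceeded the DN rats and replicates 1 to 3 were within the DN range (log2 fold change 0.38 ± 0.25 (SE)). Aif1 was at 7.28, 7.35, 6.26 and 13.2 CPM, again with replicate 4 highest, and Laptm5 at 20.96, 26.1, 29.8 and 28.3 CPM. Cd68 was at 4.30, 6.42, 8.54 and 10.3 CPM and Csf1r at 58.00, 56.3, 62.1 and 60.2 CPM, with log2 fold changes of -0.31 ± 0.25 (SE) and -0.15 ± 0.10 (SE). Cd3e was at 0.995, 1.22, 1.21 and 1.24 CPM and Cd3g at 0.786, 0.843, 1.35 and 0.718 CPM. Cd3e had its values close together at or below the low end of the DN range, with a log2 fold change of -0.53 ± 0.31 (SE). Cd79a was at 0.472, 0.375, 1.12 and 1.10 CPM and Ccl2 at 0.891, 2.15, 1.31 and 2.59 CPM. Cxcl12 was at 92.7, 108, 100.1 and 110.0 CPM, a log2 fold change of 0.01 ± 0.10 (SE), so that neither dose showed a difference from the DN group in this gene. Csf1 was at 25.4, 27.8, 30.3 and 27.7 CPM, with 3 of the rats below the lowest DN rat, and Cx3cr1 at 6.13, 4.45, 2.61 and 3.06 CPM, with replicates 3 and 4 below the DN rats. Their log2 fold changes were -0.27 ± 0.15 (SE) and -0.38 ± 0.27 (SE).

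**Figure D4:**
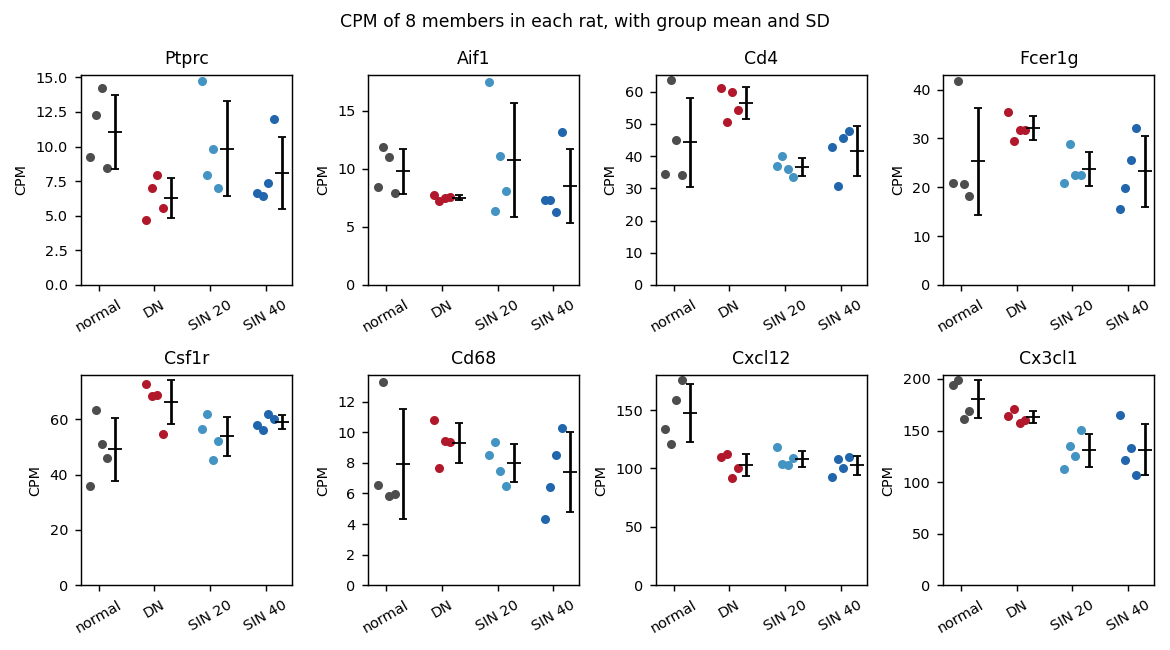
CPM of 8 members in each rat (points) by group (SIN 20 and SIN 40 are the doses in mg/kg), with the group mean and SD beside them. The DN rats lie below the normal rats in Ptprc and Cxcl12, and both SIN groups lie below the DN rats in Cd4.

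**Figure D5:**
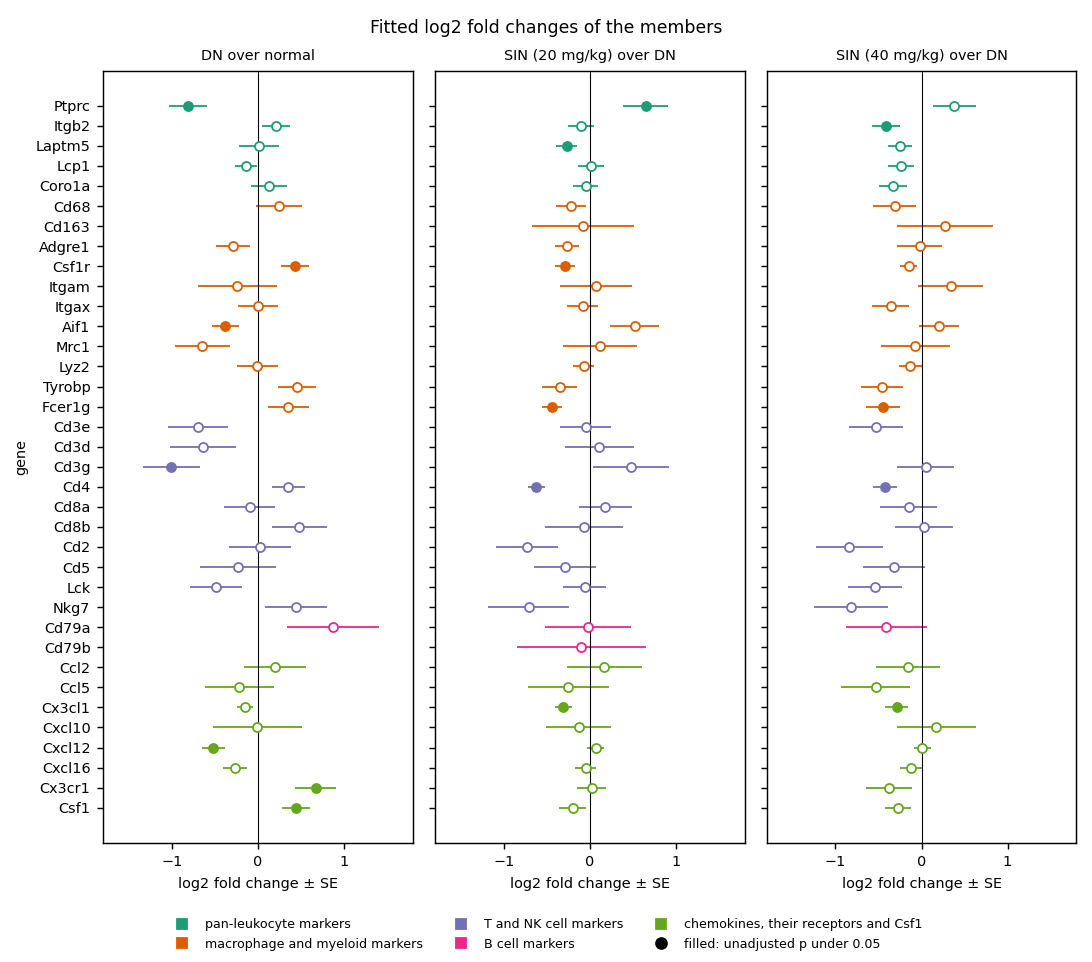
Fitted log2 fold change (point) and SE (bar) of each member in 3 comparisons, coloured by list, with filled points at an unadjusted p under 0.05. Filled points left of 0 are 4 for DN over normal, 5 for SIN (20 mg/kg) over DN and 4 for SIN (40 mg/kg) over DN.

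Between the 2 doses, 35 members were tested and 0 were DEGs in edgeR's quasi-likelihood test or in DESeq2, beside 1 of 15657 genes, or 0.00639%, in edgeR's test and 17 genes, or 0.113% of those with an adjusted p, in DESeq2. At an unadjusted p under 0.05, 0 members were higher and 1 lower at 40 mg/kg, or 2.86% lower, beside 2.41% of all genes higher and 2.57% lower. Without SIN (20 mg/kg) replicate 3 or SIN (40 mg/kg) replicate 2 the number was 2, without SIN (40 mg/kg) replicate 1 it was 3 and without SIN (40 mg/kg) replicate 4 it was 5. With all 8 rats the member was Itgb2, with a log2 fold change of -0.32 ± 0.11 (SE) and an adjusted p = 0.962 in edgeR's test. The ranges did not overlap for 3 members, Itgb2, Lck and Cd3e, all lower at 40 mg/kg, or 8.57% of the members beside 3.30% of all genes. Lck was at 3.92, 4.29, 3.79 and 4.14 CPM with SIN (20 mg/kg) and 1.78, 3.09, 2.89 and 3.69 CPM with SIN (40 mg/kg). The median log2 fold change of the members was -0.12. Cd4 had a log2 fold change of 0.18 ± 0.14 (SE) between the doses, and a difference between them was not shown.

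Other genes of the same biology were tested in the same fits, from lists that the members were not part of. Of 13 other chemokine ligands tested, 2 were DEGs, both higher in the DN group, or 15.4% beside 19.5% of all genes. At an unadjusted p under 0.05, 3 ligands were higher and 2 lower, or 23.1% and 15.4%, beside 17.6% and 19.4% of all genes. DESeq2 called the same 5, beside 26.4% of all genes with an adjusted p. Its added calls were Ccl21, which was higher, and Cxcl9 and Cxcl14, which were lower. Ccl4, a chemokine of activated macrophages and lymphocytes, was at 0.329, 1.17, 0.655 and 0.928 CPM in the normal rats and 1.77, 1.57, 1.77 and 2.07 CPM in the DN rats (log2 fold change 1.21 ± 0.37 (SE), adjusted p = 0.0477, edgeR). Ccl19, which binds CCR7, was at 5.16, 4.64, 4.06 and 5.61 CPM and 8.19, 8.09, 5.84 and 6.97 CPM (log2 fold change 0.58 ± 0.18 (SE), adjusted p = 0.0472, edgeR). Of 12 chemokine receptor and colony stimulating factor genes tested, 2 were DEGs and both were higher, or 16.7%, and DESeq2 also called 2. Il34, the other ligand of the CSF1 receptor, was at 45.9, 51.97, 40.6 and 44.1 CPM in the normal rats and 56.1, 65.5, 82.7 and 98.03 CPM in the DN rats, with no overlap. Its log2 fold change was 0.73 ± 0.16 (SE) with an adjusted p = 0.0192 in edgeR's test. Csf2rb, the shared receptor chain of GM-CSF and IL-3, had a log2 fold change of 0.50 ± 0.15 (SE). Its level was high, at 474, 459, 355 and 427 CPM in the normal and 477, 579.6, 754 and 608 CPM in the DN rats. Which cells carried it was not measured.

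Of 6 leukocyte adhesion molecules tested between the DN and normal groups, Vcam1, the endothelial and stromal partner of leukocyte integrins, fell and Icam2, an endothelial adhesion molecule, rose. These 2 made up 33.3% of the 6, beside 19.5% of all genes. Vcam1 was at 26.6, 23.3, 34.03 and 29.7 CPM in the normal rats and 14.2, 14.7, 13.00 and 15.8 CPM in the DN rats, far apart, with a log2 fold change of -0.98 ± 0.14 (SE) and an adjusted p = 0.00457 in edgeR's test. Icam2 had a log2 fold change of 0.47 ± 0.14 (SE) with an adjusted p = 0.0441 in edgeR's test. Also tested were 22 other macrophage and myeloid genes, 14 other lymphocyte genes and 2 neutrophil and mast cell genes. Of these 0 were DEGs in edgeR's test, beside 19.5% of all genes. At an unadjusted p under 0.05, 2 myeloid genes were higher and 2 lower, and 3 lymphocyte genes were lower. By that rule 17.6% of all genes were higher and 19.4% lower. DESeq2 called 3, 0 and 0 in these lists, beside 26.4% of all genes with an adjusted p. The genes with the smallest p of these lists in any comparison were Cd48, a surface protein of leukocytes, with a log2 fold change of -0.55 ± 0.19 (SE) for DN over normal, the T cell receptor partner Cd6 with -0.94 ± 0.24 (SE) for SIN (40 mg/kg) over DN, and the G-CSF receptor Csf3r with 0.62 ± 0.30 (SE) for DN over normal. Against the DN group, the SIN (20 mg/kg) group had 0 DEGs of all these lists in edgeR's test, beside 0% of all genes. An unadjusted p under 0.05 was found for 4 of 13 chemokine ligands (1 higher) and 1 of 11 receptor or factor genes. It was also found for 1 of 21 myeloid genes, 2 of 14 lymphocyte genes (1 higher) and 1 of 7 adhesion molecules. The rest of these were lower, and over all genes 9.19% were higher and 6.25% lower. DESeq2 called 1 ligand, beside 1.74% of all genes with an adjusted p. In the SIN (40 mg/kg) group 0 were DEGs in edgeR's test either, beside 0% of all genes. The numbers at an unadjusted p under 0.05 were 3 of 12, 2 of 10, 0 of 21, 2 of 14 and 1 of 6, all lower. Over all genes 9.90% were higher and 7.21% lower. DESeq2 called 1 ligand and 2 lymphocyte genes, beside 3.10% of all genes with an adjusted p. Il34 was at 40.9, 44.1, 56.8 and 52.7 CPM with SIN (20 mg/kg) and 70.8, 45.5, 42.2 and 40.4 CPM with SIN (40 mg/kg), with unadjusted p values of 0.00517 and 0.0209 against the DN group, and Vcam1 was at 24.6, 16.03, 15.4 and 15.9 CPM and 16.7, 14.2, 14.5 and 18.2 CPM, with log2 fold changes of 0.32 ± 0.17 (SE) and 0.16 ± 0.13 (SE).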

How the data were processed

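Kidney mRNA of 16 rats was measured by RNA sequencing. According to the paper, the authors trimmed reads by SeqPrep and Sickle before TopHat placed them on the Ensembl rat genome. The submitters' processing notes name TopHat, Bowtie, RSEM and edgeR without a role. The authors deposited 1 table of estimated counts (expected counts, not normalized) for 35849 genes, with the gene length in bases, and the program that made the counts was not given in the sources used here. Of the nonzero values 74.3% were whole, and every value was made whole by rounding ahead of the tests. Each column was matched to its rat through the library number in the labels, and the authors' group means, used only for this check, differed from the means of the joined columns by at most 0.0005. The 4 columns of no sample record were not used.

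Each of 4 comparisons was fitted alone on its 8 rats with edgeR 4.0.16 (quasi-likelihood test, TMM, filterByExpr, two-sided, Benjamini-Hochberg adjustment over all genes tested) in R 4.3.3. DEGs were genes with an adjusted p under 0.05. The SE of a log2 fold change was derived from the test. It is the absolute log2 fold change divided by the square root of the quasi-likelihood F statistic. For CPM, TMM factors were computed from the 16 rats together, with a prior count of 2 on the log2 scale. Totals of 19616312 to 25217030 estimated counts per rat leave genes below about 10 counts poorly measured. Alternatives were DESeq2 1.42.0, RLE normalization, leaving out the filter or requiring 10 counts in each rat compared, a single fit of all 16 rats, a block for the replicate number, and omitting rats one by one. The steps were tested on simulated data with the same dispersion for every gene and log2 fold changes larger than that of any member. The power to find changes of the members' size was therefore not tested. The members, the gene lists and the tests were chosen with earlier results of these data known. Members with an unadjusted p under 0.05 in any comparison, the member with the smallest p of each list, and Ptprc, Cd68, Cd3e, Cd79a and Ccl2 are given in every rat. Of the other lists, genes with an adjusted p under 0.05 are named, or else the 1 with the smallest p. Adgre1, Lck, Mrc1 and Cxcl10 lie outside that rule where single values of theirs are given, and were picked with their values in view. The rats are separate animals by their labels. Promoters came from RefSeq tables on GRCr8, a newer build than that of the reads, and no other positions were used.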

Additional observations from a re-analysis of the deposited data

Results flagged for a closer look

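In 136 groups of 4 rats (34 members in 4 groups) 12 had a highest or lowest rat far from the other 3 on the log2 CPM scale, by Dixon's test at the 95% level. Chance flags about 1 in 20 such groups. Normal replicate 2 stood above its group in Cd68 (13.3 CPM), Fcer1g (41.7 CPM) and Lck (9.08 CPM). The DN group held Mrc1, high in replicate 3 (7.20 CPM), and Cd3d, high in replicate 2 (0.859 CPM). With SIN (20 mg/kg), Laptm5 was low in replicate 3 (22.9 CPM), Adgre1 and Itgam were low in replicate 4 (8.57 and 1.27 CPM), and Cd2 was low in replicate 2 (0.517 CPM). With SIN (40 mg/kg), Mrc1 was high in replicate 1 (6.29 CPM), Cd3e was low in the same rat (0.995 CPM), and Itgax was high in replicate 4 (7.85 CPM).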

How the results depend on the processing

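Between the DN and normal groups the number of DEGs among the members was 2, and it was 5 in DESeq2, 4 with all 16 rats in one fit, 1 with a replicate block and 1 without normal replicate 1 and DN replicate 3, a setting chosen after seeing the data. That last setting also left 4 members at an unadjusted p under 0.05 in place of 7. With single rats left out the DEGs ran from 0 to 5, the members at an unadjusted p under 0.05 from 4 to 11, and the median log2 fold change of the members from -0.12 to 0.21, and the highest of each came without normal replicate 2. The share of DEGs moved over all genes too. It was 19.5% in the main fit, 26.4% in DESeq2 and 23.6% without normal replicate 2, beside 5.88%, 14.7% and 14.3% of the members. For the other settings of this comparison it was not counted. Cxcl12 was not a DEG with the replicate block (adjusted p = 0.0797, edgeR). The log2 fold change of Ccl2 ran from -0.03 (without normal replicate 1) to 0.45 with single rats left out. Between SIN (20 mg/kg) and DN, DESeq2 called 1 member, and 3 members in place of 6 had an unadjusted p under 0.05 with all 16 rats in one fit and with the replicate block, and 3 to 6 with each rat left out in turn. Between SIN (40 mg/kg) and DN the number with each rat left out ran from 1 to 7, and between the doses from 1 to 5, with 2 when at least 10 counts were required. The causes of these moves were not tested, and a fit that leaves out a rat also has fewer rats. No alternative gave a DEG among the members between SIN (40 mg/kg) and DN or between the doses.

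The replicate numbers did not pair the rats, since same-numbered rats of 2 groups correlated between -0.25 and 0.06 in their deviations from the group means (0, 0, 1 and 0 of 8 rats in the 4 comparisons correlated best with their own number), so the replicate block is given only here. Counts were among the lowest for the B cell genes, Cd163 and Cd3d, at 0 to 37 per rat, and 4 rats per group limit every member.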

Other observations

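A few genes of the wider lists, chosen after their values were seen, had group means apart without an adjusted p under 0.05 in edgeR's quasi-likelihood test, while DESeq2 called each of them in the comparisons given. Ccl21, a ligand of CCR7 made by lymphatic vessels, was at 19.9, 5.27, 6.12 and 9.01 CPM in the normal rats and 27.2, 10.1, 24.9 and 28.8 CPM in the DN rats, and at 13.3, 7.08, 8.94 and 12.6 CPM with SIN (20 mg/kg) and 11.1, 15.2, 8.12 and 9.10 CPM with SIN (40 mg/kg). Its log2 fold changes were 1.18 ± 0.44 (SE) for DN over normal, -1.12 ± 0.32 (SE) for SIN (20 mg/kg) over DN and -1.05 ± 0.31 (SE) for SIN (40 mg/kg) over DN, which share the DN rats. Its adjusted p values in these comparisons were 0.0864, 0.270 and 0.200 in edgeR's test and 0.0222, 0.0358 and 0.0328 in DESeq2. Trem2, a lipid receptor of macrophages, was at 0.423, 0.830, 1.79 and 0.354 CPM in the normal and 2.88, 1.62, 1.95 and 2.69 CPM in the DN rats, with a log2 fold change of 1.41 ± 0.50 (SE) and an adjusted p of 0.0709 in edgeR's test and 0.0275 in DESeq2. Cxcl9, an interferon-induced ligand of CXCR3, was at 2.77, 12.2, 2.75 and 2.78 CPM in the normal rats, where replicate 2 was highest, and 1.95, 2.48, 1.36 and 0.481 CPM in the DN rats, with a log2 fold change of -1.70 ± 0.61 (SE) and an adjusted p of 0.0773 in edgeR's test and 0.0200 in DESeq2. Cxcl14, a chemokine of epithelial and stromal cells, ranged from 2.45 to 6.57 CPM in the normal and from 1.44 to 2.57 CPM in the DN rats, which overlapped, with a log2 fold change of -1.01 ± 0.34 (SE) and an adjusted p of 0.0611 in edgeR's test and 0.0280 in DESeq2.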
